A study of Homo sapiens with 6 samples.

Results

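The Notch genes described here are 10 genes chosen by symbol: the ligands JAG1 and JAG2, the receptors NOTCH1, NOTCH2 and NOTCH3, the receptor-modifying enzyme LFNG, the nuclear partners RBPJ and MAML2, and the target genes HES1 and HES4. All 10 were found among the 19437 genes of the expression table, each as a single entry. They were measured by sequencing of poly(A) RNA from SCC9 cells, an established human line from a squamous cell carcinoma of the tongue, grown in DMEM/F12 with 10% serum and hydrocortisone. The 3 control libraries (GFP A, B and C) came from cells that received an adenovirus expressing green fluorescent protein. The 3 treated libraries (TEADi A, B and C) came from cells that received an adenovirus expressing TEADi, a protein that inhibits the TEAD transcription factors. Both viruses were added 1 day after plating at a multiplicity of infection of 25, and all cells were collected after 48 h, so control cells carried an adenovirus too. The study used 1 cell line. The labels speak of triplicate transduction and not of separate cultures, so p-values measure the spread between these libraries only, which may be technical.

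Notch receptors are single-pass membrane proteins that are activated by Jagged or Delta-like ligands on a neighbouring cell. Ligand binding exposes the receptor to an ADAM protease and then to gamma-secretase, which frees the intracellular domain. That domain enters the nucleus, joins the DNA-binding protein RBPJ and a Mastermind-like co-activator, and turns on genes such as the HES and HEY repressors. In stratified squamous epithelium the pathway is known for its part in the exit of basal cells from proliferation and in differentiation.

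Values are CPM, read counts scaled to library size and then by the authors with TMM factors, with totals of 827124 to 915558 per library. The smallest value of each library stands in for no reads, and the totals divided by it were 9589768 to 15380584. The treatment was visible in ANKRD1 and CYR61, textbook targets of YAP and TEAD, which were 43.9-fold and 6.24-fold lower in TEADi libraries. Of the simple epithelial markers expected in a carcinoma line, KRT8 and KRT18 were between 58.6 and 228 CPM in every library, while CDH1 was at most 1.73 and EPCAM at most 3.41. All 5 listed simple epithelial markers were in the table, with sums of 267 to 317 CPM in GFP and 160 to 170.0 in TEADi. The 3 that could be tested (KRT8, KRT18 and EPCAM) were called lower, beside 35.3% of all genes tested. Of the basal keratinocyte markers, TP63 was at most 0.910 CPM and KRT14 at most 3.57, while DSC3 stood at 48.8 to 70.5. The fibroblast collagen COL1A1 stood at 236.5 to 428.6 CPM across all libraries. In every library CDH1, EPCAM, TP63 and KRT14 thus stood far below COL1A1, with KRT8, KRT18 and DSC3 in between. How near these cells are to squamous epithelium was not tested. GFP libraries A and B stood apart from the other libraries in several basal keratinocyte markers. The level of KRT5, a basal keratin, was 21.7, 17.2 and 0.414 CPM across GFP A, B and C, in that order, and 0.173 to 0.302 CPM across TEADi. These libraries matter for JAG2 and NOTCH2 below.

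The 250 bases before the gene start to 50 after it were taken from RefSeq (GRCh38.p14), which gave 15 windows for the 10 genes. The stretch from 150 bases to 1 base before the start is shown for NOTCH3, the gene with the largest change. It is also shown for HES1 and HES4, the target genes among the 10. Capitals mark the core letters bound by RBPJ, TGGGAA. The stretches lie at chr19:15200996-15201145 (minus strand) for NOTCH3, chr3:194135998-194136147 (plus strand) for HES1 and chr1:1000098-1000247 (minus strand) for HES4, and are written 5′ to 3′ along the gene.
HES1: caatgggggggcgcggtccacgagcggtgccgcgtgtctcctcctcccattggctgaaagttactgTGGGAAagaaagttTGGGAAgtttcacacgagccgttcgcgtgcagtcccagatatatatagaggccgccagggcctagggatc
HES4: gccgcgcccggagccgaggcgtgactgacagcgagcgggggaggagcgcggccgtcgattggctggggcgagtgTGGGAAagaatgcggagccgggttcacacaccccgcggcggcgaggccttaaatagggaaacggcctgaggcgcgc
NOTCH3: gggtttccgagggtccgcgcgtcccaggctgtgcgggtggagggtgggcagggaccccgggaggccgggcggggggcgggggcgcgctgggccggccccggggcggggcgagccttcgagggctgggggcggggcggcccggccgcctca

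HES1 held the RBPJ core at 2 places, starting at -84 and -70 from the gene start, and HES4 at 1 place, starting at -76. The longest run shared by the HES1 and HES4 stretches was 12 bases, tgTGGGAAagaa, and it held the core. No core was found in the NOTCH3 window, whose printed stretch had a GC content of 84.7%, against 58.7% for HES1 and 71.3% for HES4. Searched on both strands, where the core reads TGGGAA or TTCCCA, it was present in 5 of the 15 windows, those of HES1, HES4, 1 of RBPJ and 2 of LFNG. Of all 35116 RefSeq windows of this length, 24.0% held it at least once and 3.80% at least 2 times. The TEAD core, GGAATG or CATTCC on the other strand, can overlap the RBPJ core by its letters GGAA. It was in 0 of the 15 windows and in 14% of all windows, which says only that these letters are not in these windows.

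With TEADi, 5 of the 10 genes were higher (NOTCH1, NOTCH3, JAG1, MAML2 and HES1), 1 was lower (RBPJ), and 4 did not pass the test (NOTCH2, JAG2, LFNG and HES4). The largest change was that of the receptor NOTCH3, whose mean was 24.2-fold higher, followed by the target HES1 at 3.28-fold. The other called changes were below 2-fold. Calls rest on limma with a Benjamini-Hochberg adjusted p under 0.05 over the 13640 genes that reached 1 CPM in 3 or more libraries, of which 25.5% were called higher and 35.3% lower. Groups did not overlap for the 6 called genes, and the same was true of 65.8% of all genes tested. The median fitted log2 fold change of the 10 genes was 0.32, beside -0.07 for all genes tested. NOTCH3 and HES1 reached 1 CPM only in TEADi libraries, so they could pass the filter only by being higher there. In an exact two-sided permutation test of a single gene, 3 libraries against 3 cannot give a p below 0.1, and each of the 6 called genes had that value.

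**Figure D1:**
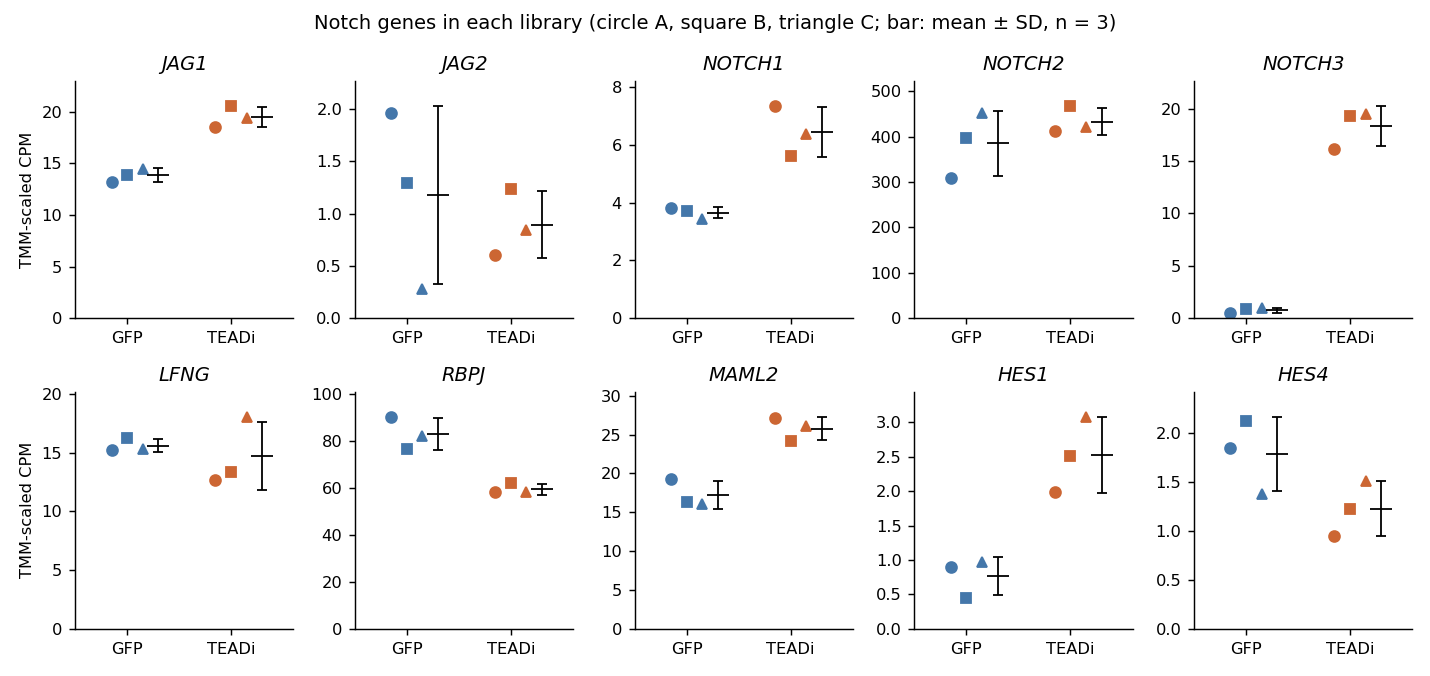
Level of each of the 10 Notch genes (y axis, TMM-scaled CPM, starting at 0) in the 3 GFP (blue) and 3 TEADi (orange) libraries; circles, squares and triangles are libraries A, B and C, and bars give the mean ± SD (n = 3). The groups do not overlap for JAG1, NOTCH1, NOTCH3, RBPJ, MAML2 and HES1.

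JAG1, a transmembrane ligand of Notch receptors on chromosome 20 (hg19, 10618332 to 10654694, minus strand), had levels of 13.2, 13.9 and 14.5 CPM under GFP (libraries A, B and C, the order used throughout) and 18.5, 20.5 and 19.4 CPM under TEADi. Every TEADi library was above every GFP library, and the spread within each group was small. JAG1 rose 1.41-fold, with a fitted log2 fold change of 0.46 ± 0.10 (SE; limma adjusted p = 4.9e-04).

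JAG2, the second Jagged ligand (chromosome 14, hg19, 105607318 to 105635161, minus strand), stood at 1.96, 1.29 and 0.276 CPM under GFP and at 0.604, 1.24 and 0.844 CPM in TEADi. The TEADi values lay within the range of the GFP values. The GFP libraries were themselves far apart, and GFP library C held only 4 times the smallest value of that library. The fitted log2 fold change was -0.13 (limma adjusted p = 0.67), and its 95% interval of -0.65 to 0.39 held changes in either direction. These values are on the log2(CPM + 1) scale, which understates changes of so low a gene.

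Within the GFP group JAG2 had the same order of libraries, A above B above C, as 7 of the 12 listed basal keratinocyte markers, among them KRT5 and the hemidesmosomal collagen COL17A1 (11.9, 9.63 and 1.86 CPM). The desmosomal cadherin DSC3, the most abundant of the list, ran the opposite way (54.3, 61.6 and 70.5 CPM), and KRT6B, KRT15, KRT16 and TP63 had other orders. The order of JAG2 was not particular to basal keratinocyte markers. Of the simple epithelial markers, KRT8, KRT19 and CDH1 had it too, and KRT18 and EPCAM did not. How many of all genes had this order was not counted. All 12 listed basal keratinocyte markers were in the table, and their summed level ranged from 79.1 to 107 CPM in GFP and from 59.2 to 61.4 in TEADi. Of 4 that could be tested, 3 were lower (COL17A1, DSC3 and ITGB4) and 1 higher (KRT15), beside 35.3% lower and 25.5% higher of all genes tested. COL17A1 reached 1 CPM only in GFP libraries, so it could pass the filter only by being higher there. KRT6B stood at the smallest value in all 6 libraries and KRT16 in all GFP libraries, so their orders there are only those of the smallest values. Without GFP library A the fitted log2 fold change of JAG2 was 0.14 (adjusted p = 0.644), and with GFP library C as the only control it was 0.56 (adjusted p = 0.0837). The part of these markers in the JAG2 values was not tested.

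**Figure D2:**
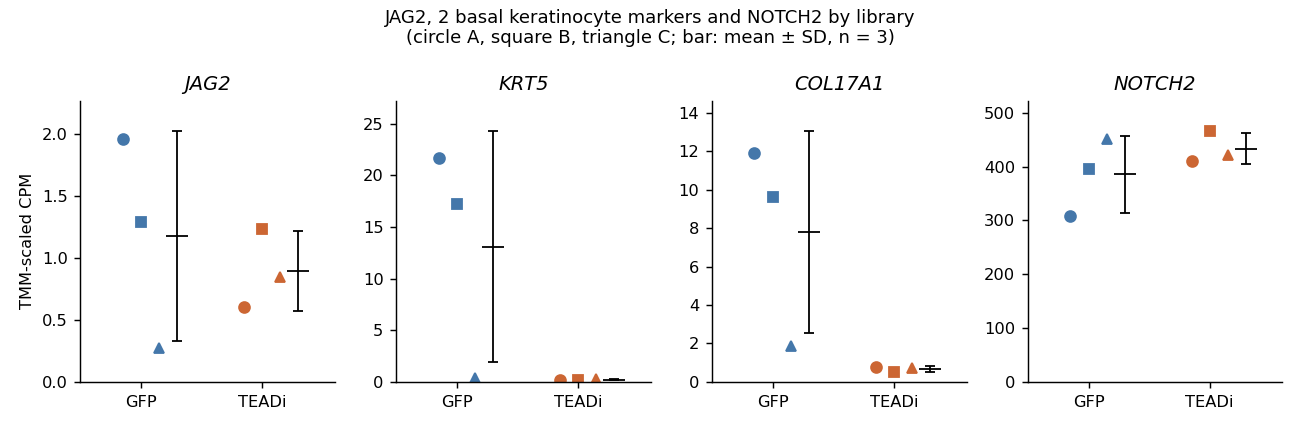
Levels of JAG2, the basal keratinocyte markers KRT5 and COL17A1, and NOTCH2 (y axes, TMM-scaled CPM, each starting at 0) in GFP (blue) and TEADi (orange) libraries, with the mean ± SD (n = 3). JAG2, KRT5 and COL17A1 are highest in GFP library A and lowest among GFP libraries in C (0.276, 0.414 and 1.86 CPM), and NOTCH2 has the opposite order among GFP libraries.

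NOTCH3 (chromosome 19, hg19, 15270444 to 15311792, minus strand) is the Notch receptor best known from vascular smooth muscle and pericytes. It stood at 0.476, 0.834 and 0.965 CPM in GFP, which is 8, 11 and 14 times the smallest value, and at 16.1, 19.3 and 19.5 CPM in TEADi. The lowest TEADi library was far above the highest GFP library. NOTCH3 rose from 0.759 ± 0.253 to 18.3 ± 1.90 CPM (SD, n = 3 libraries), a log2 fold change of 3.46 ± 0.15 on the log2(CPM + 1) scale (SE; limma adjusted p = 3.6e-12), which understates the change of so low a gene. It had the 22nd largest rise of all 13640 genes tested. In the authors' deposited table its ratio was 24.2 with an adjusted p of 1.6e-08.

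Genes of a fibroblast marker list moved in the same libraries. Of 7 listed markers 6 were in the table, and their summed level was 541 to 705 CPM in GFP and 1197 to 1266 CPM in TEADi. Of these 6, 4 were called higher (DCN, LUM, PDGFRA and COL3A1), 1 lower (COL1A1) and 1 was not called (COL1A2). Of all genes tested, 25.5% were called higher and 35.3% lower. The receptor gene PDGFRA stood at 1.19 to 1.30 CPM in GFP and 17.2 to 20.6 in TEADi, and the proteoglycan DCN at 50.5 to 60.8 and 654 to 693. Most of the rise of the sum was thus that of DCN alone. COL1A1, the most abundant of the 6 in GFP, went the other way, with 302.1 to 428.6 CPM in GFP and 236.5 to 275.4 in TEADi. In these bulk libraries more cells of a kind and more RNA per cell cannot be told apart, and the part of these markers in the NOTCH3 rise was not tested.

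NOTCH1 (chromosome 9, hg19, 139388896 to 139440314, minus strand), the main receptor of differentiating keratinocytes, stood at 3.81, 3.72 and 3.45 CPM under GFP and at 7.33, 5.61 and 6.39 CPM in TEADi. The groups did not overlap, and the TEADi libraries were more spread than the controls. NOTCH1 rose 1.76-fold (log2 fold change 0.67 ± 0.13, SE; limma adjusted p = 3.9e-04).

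NOTCH2 (chromosome 1, hg19, 120454176 to 120612240, minus strand) stood at 309, 396 and 452 CPM under GFP and at 412, 467 and 422 CPM in TEADi. The groups overlapped, and GFP library A, the control with the most KRT5, was the lowest of all 6. The same rise from GFP A to C was seen in some other genes, among them COL1A1 (302, 406 and 429 CPM) and HUWE1 (433, 454 and 531 CPM). Others ran the opposite way, such as PGK1 (1253, 1069 and 1048 CPM). The share of all genes with either order was not counted. The source of the order of NOTCH2, and any part of KRT5 in it, was not tested. The fitted log2 fold change was 0.18 with a 95% interval of -0.04 to 0.40 (limma adjusted p = 0.137). The value hung on which controls were used, since it was 0.31 without GFP library C (adjusted p = 0.00627), 0.03 without GFP library A (adjusted p = 0.672) and -0.06 with GFP library C as the only control (adjusted p = 0.507). It also passed the threshold with quantile normalization (0.29, adjusted p = 0.0455). NOTCH2NL, a partial copy of NOTCH2 that is nearly identical to its first exons, stood at 30.5 to 47.1 CPM, and how the authors' counting shared reads between the copies is not given, so NOTCH2 values are uncertain to that extent.

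To compare the receptors with each other, levels were set per length, as CPM per kb of merged coding-transcript exons in GENCODE 29. The order of the receptors within each library was the same in CPM and per length, and it differed between GFP and TEADi. NOTCH2 was the most abundant in every library, at 19.2 to 28.1 per kb in GFP and a mean of 27.0 ± 1.82 (SD, n = 3 libraries) in TEADi. NOTCH1 came next in GFP, with 0.371 to 0.409 per kb, and NOTCH3 was last, with 0.0550 to 0.111. In TEADi the last 2 places were exchanged, with NOTCH3 at 1.86 to 2.25 per kb and NOTCH1 at 0.603 to 0.788. NOTCH1 was 3.33-fold to 7.45-fold above NOTCH3 in the GFP libraries, and NOTCH3 was 2.36-fold to 3.70-fold above NOTCH1 in the TEADi libraries, so the exchange held in 3 of 3 libraries on each side. NOTCH3 made up 0.279% to 0.390% of the summed per-length level of these 3 receptors in GFP and 6.59% to 7.70% in TEADi.

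**Figure D3:**
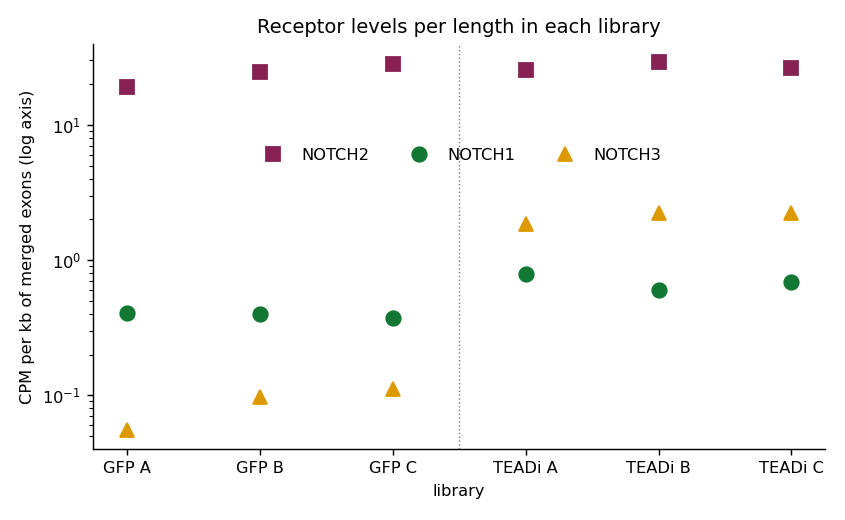
CPM per kb of merged exons (y axis, log scale) of NOTCH2, NOTCH1 and NOTCH3 in each library (x axis). NOTCH2 is the highest in all 6 libraries, and NOTCH3 lies below NOTCH1 in the 3 GFP libraries and above it in the 3 TEADi libraries.

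LFNG, the Lunatic fringe glycosyltransferase that adds sugars to the receptors and so tunes which ligands they answer to, lies on chromosome 7 (hg19, 2552163 to 2568811, plus strand). It stood at 15.2, 16.2 and 15.3 CPM under GFP and at 12.7, 13.4 and 18.0 CPM in TEADi. TEADi libraries A and B were below all controls and TEADi library C above them. The fitted log2 fold change was -0.10, with a 95% interval of -0.35 to 0.16 (limma adjusted p = 0.509).

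RBPJ, which binds DNA for the whole complex (chromosome 4, hg19, 26165077 to 26436541, plus strand), stood at 90.2, 76.8 and 82.3 CPM under GFP and at 58.1, 62.2 and 58.2 CPM in TEADi. It was the only one of the 10 genes whose TEADi libraries all lay below the controls. RBPJ fell 1.40-fold (log2 fold change -0.47 ± 0.07, SE; limma adjusted p = 3.2e-05).

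MAML2, a Mastermind-like co-activator that binds the complex of RBPJ and the receptor's intracellular domain, lies on chromosome 11 (hg19, 95709762 to 96076344, minus strand). It stood at 19.3, 16.4 and 16.1 CPM under GFP and at 27.1, 24.2 and 26.1 CPM in TEADi. MAML2 rose 1.49-fold (log2 fold change 0.55 ± 0.10, SE; limma adjusted p = 1.0e-04), without overlap of the groups. These nuclear partners thus moved in opposite directions.

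HES1, a basic helix-loop-helix repressor and the most widely used target of Notch (chromosome 3, hg19, 193853934 to 193856521, plus strand), stood at 0.893, 0.455 and 0.965 CPM under GFP and at 1.98, 2.52 and 3.08 CPM in TEADi. In multiples of each library's smallest value these levels were 15, 6 and 14 in GFP and 23, 35 and 51 in TEADi, so the gene was measured on few reads. HES1 rose from 0.771 ± 0.276 to 2.53 ± 0.546 CPM (SD, n = 3 libraries). Its log2 fold change was 0.99 ± 0.18 on the log2(CPM + 1) scale (SE; limma adjusted p = 1.3e-04). As for NOTCH3, that scale understates the change of so low a gene, whose mean rose 3.28-fold.

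HES4, a related repressor on chromosome 1 (hg19, 934342 to 935552, minus strand) that has no counterpart in mouse, stood at 1.85, 2.12 and 1.38 CPM under GFP and at 0.949, 1.22 and 1.51 CPM in TEADi. TEADi library C lay above GFP library C, so the groups overlapped. The fitted log2 fold change was -0.32 with a 95% interval of -0.68 to 0.04 (limma adjusted p = 0.114), and the gene passed the threshold with quantile normalization (-0.46, adjusted p = 0.0286). The 95% intervals of HES1 (0.62 to 1.37) and HES4 lay apart. Both genes carry the RBPJ core just before their start, but binding of RBPJ was not measured. The difference between the 2 genes was not tested.

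**Figure D4:**
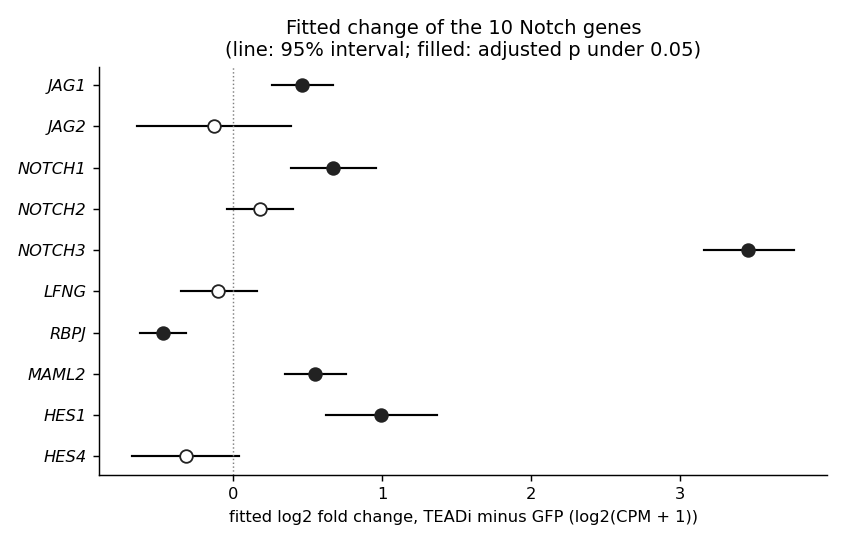
Fitted log2 fold change of TEADi minus GFP on the log2(CPM + 1) scale (x axis) for the 10 Notch genes (y axis), with 95% intervals as lines; filled points passed an adjusted p of 0.05 in limma. NOTCH3 stands at 3.46, the other called rises lie between 0.46 and 0.99, and RBPJ is the only called fall at -0.47.

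The wider list of Notch pathway genes, in which these 10 stand, had 66 genes in the table, of which 55 passed the filter. Of the 45 tested genes besides the 10, 15 were higher, 10 lower and 20 not called, and the median of their log2 fold changes was 0.10. The shares, 33.3% higher and 22.2% lower, stand beside 25.5% and 35.3% of all genes tested, so the share higher is near that of all genes, and counts by role below are descriptions of few genes against the same shares.

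Among the other ligands, the atypical ligand DNER rose from 9.91 ± 0.463 to 34.6 ± 0.458 CPM (SD, n = 3 libraries; log2 fold change 1.71; limma adjusted p = 7.3e-11), and DLL3, a Delta-like protein that acts inside the cell as an inhibitor, fell from 1.41 ± 0.554 to 0.492 ± 0.151 CPM (-0.67; limma adjusted p = 0.00544). DLL3 was no longer called with GFP library C as the only control (adjusted p = 0.122). DLL3 reached 1 CPM only in GFP libraries, so it could pass the filter only by being higher there. DLL1 and DLL4 stayed at or below 0.647 CPM in all libraries and were not tested. NOTCH4 was higher in TEADi, with 0.276 to 0.455 CPM in GFP and 1.03 to 1.93 in TEADi (0.90; limma adjusted p = 4.4e-04). It reached 1 CPM only in TEADi, and it overlaps GPSM3, a gene on the same strand with a mean of 10.7 CPM, so its reads are uncertain. The log2(CPM + 1) scale understates the changes of these low genes, since the mean of NOTCH4 was 4.21-fold higher and that of DLL3 2.86-fold lower.

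Of the 9 tested proteases that cleave the receptor, 5 were called higher and 1 lower, beside 25.5% and 35.3% of all genes tested, and the group itself was not tested. FURIN, which cuts the receptor precursor in the Golgi, rose from 42.3 ± 3.60 to 88.3 ± 4.76 CPM (SD, n = 3 libraries; log2 fold change 1.05; limma adjusted p = 5.4e-09). The gamma-secretase subunit NCSTN rose from 84.6 ± 4.84 to 141 ± 3.13 CPM (limma adjusted p = 6.8e-08), and ADAM10, which cuts the receptor before gamma-secretase does, from 89.6 ± 5.87 to 123 ± 5.46 CPM (limma adjusted p = 2.3e-05). NCSTN overlaps COPA, a more abundant gene on the other strand, and no source used here says whether counting used strand. The member of this set that fell was the gamma-secretase subunit APH1A (168 ± 14.7 to 137 ± 5.24 CPM; limma adjusted p = 0.00207), while ADAM17, PSEN2 and PSENEN were not called. APH1A was no longer called with GFP library C as the only control (adjusted p = 0.114). None of the 4 tested sugar-modifying enzymes, LFNG, RFNG, POFUT1 and POGLUT1, was called by limma, and their log2 fold changes lay between -0.10 and 0.10.

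Among other nuclear partners, the acetyltransferase EP300 rose from 64.2 ± 4.24 to 82.7 ± 3.32 CPM and SNW1, a splicing factor also known as a Notch co-activator, fell from 110 ± 8.24 to 82.3 ± 3.81 CPM (SD, n = 3 libraries). MAML1 was called lower (log2 fold change -0.19; limma adjusted p = 0.0289), but not with libraries set to equal totals (adjusted p = 0.128). Of 10 co-repressors 3 fell and 2 rose, which is near the 35.3% lower and 25.5% higher of all genes tested. The deacetylase HDAC2 (log2 fold change -0.59) and the co-repressors CTBP1 (-0.54) and CTBP2 (-0.30) fell, and the demethylase KDM5A (0.31) and SPEN (0.24) rose. SNW1, CTBP1, CTBP2 and KDM5A each overlap a gene on the other strand with at least 18.8% of their level. KDM5A was no longer called without GFP library B (adjusted p = 0.0507) or without TEADi library B (adjusted p = 0.058), nor CTBP2 with GFP library C as the only control (adjusted p = 0.0594). SPEN, whose groups overlapped (84.3 to 108 CPM under GFP, 102 to 119 under TEADi), kept its call in 9 of 18 alternatives and had a log2 fold change of 0.01 with GFP library C as the only control (adjusted p = 0.945).

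Of 12 tested genes of trafficking and turnover 5 rose and 3 fell, beside 25.5% higher and 35.3% lower of all genes tested. NUMB, an endocytic adaptor that antagonises Notch, rose from 36.6 ± 0.620 to 50.3 ± 1.29 CPM and the ubiquitin ligase DTX3L from 73.5 ± 2.87 to 97.1 ± 5.07 CPM (SD, n = 3 libraries). The Deltex ligase DTX4 fell from 7.74 ± 1.14 to 3.32 ± 0.131 CPM and NEURL1, a ubiquitin ligase of the Neuralized family that acts on ligands, from 2.89 ± 0.330 to 0.507 ± 0.336 CPM. DTX3L overlaps PARP9 and NEURL1 overlaps the more abundant SH3PXD2A, each on the other strand. NEURL1 reached 1 CPM only in GFP libraries, so it could pass the filter only by being higher there. DTX1, itself a target of Notch in lymphocytes, lay below the filter, with 0.138 to 0.227 CPM in GFP and 0.949 to 1.27 in TEADi.

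Among the HES and HEY targets, HES1 was the only one called. HEY1, a repressor of the related HEY family, stood at 1.55, 1.36 and 1.10 CPM under GFP and at 0.776, 0.647 and 1.03 in TEADi (log2 fold change -0.37; limma adjusted p = 0.0703), and it passed the threshold with quantile normalization (-0.56, adjusted p = 0.0102) and in 2 other alternatives. Only 3 of the 9 listed targets in the table passed the filter, namely HES1, HES4 and HEY1. HES2, HES6, HES7, HEY2, HEYL and the feedback inhibitor NRARP lay between 0.0603 and 1.51 CPM and were not tested. Their ratios of means, TEADi over GFP, ran from 0.484 for HES7 to 1.25 for HES6, and the groups of each gene overlapped. None of them showed a rise like that of HES1, which was called at 3.28-fold from a GFP mean of 0.771 CPM. A gene that rose as HES1 did from the same level would have passed the filter, so this contrast is in part set by the filter. DTX1, also below the filter and described above, had a ratio of means of 5.92 without overlap of the groups. Smaller changes in the untested HES and HEY genes and NRARP, and changes in those with the fewest reads, could not be judged at this depth.

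**Figure D5:**
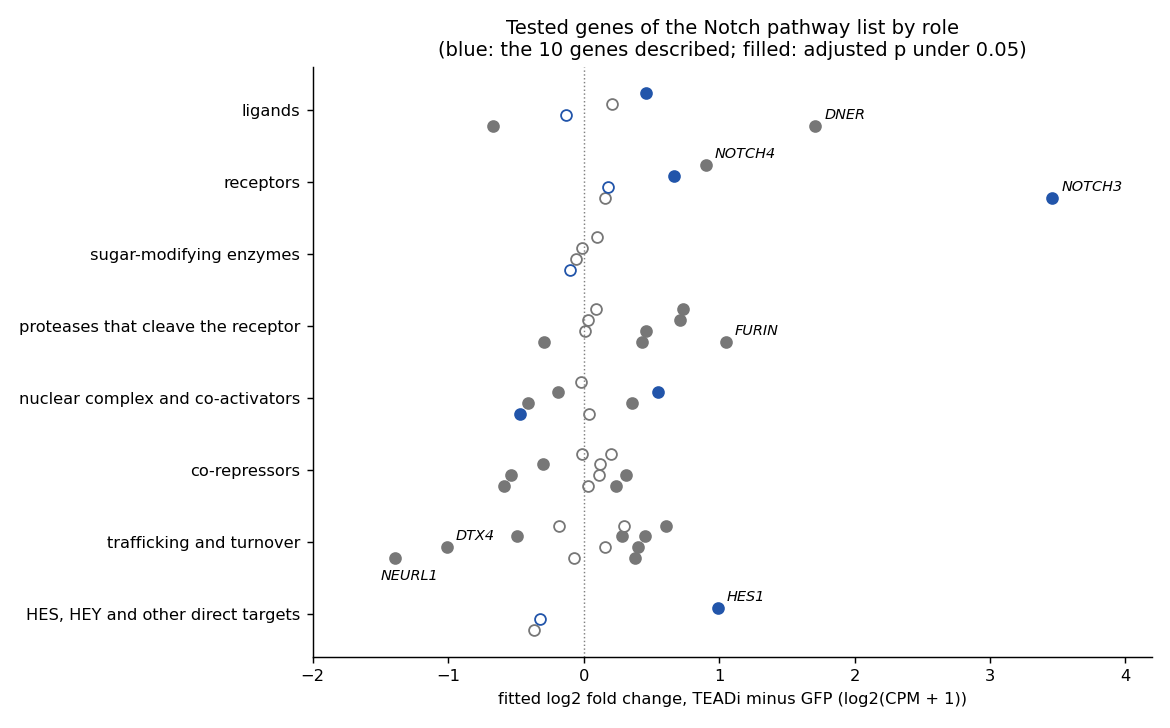
Fitted log2 fold change of TEADi minus GFP (x axis, log2(CPM + 1) scale) for the 55 tested genes of the Notch pathway list, grouped by role (y axis; the vertical offset within a role only separates points). Blue points are the 10 genes described above and filled points passed an adjusted p of 0.05 in limma; NOTCH3 at 3.46 and DNER at 1.71 lie farthest to the right, and NEURL1 at -1.39 farthest to the left.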

How the data were processed

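The authors deposited a table of CPM scaled with TMM factors for 6 libraries, and a table with their ratio and p-value for each gene, whose test is not named. Per the submitters' processing notes, Trimmomatic 0.36, STAR 2.5.1, Partek 8.0.19.0819 and hg19 were used. The quantifier and strand use are not given in the sources used here. Whole reads could not be recovered, since just 88.6% to 89.3% of low values were whole to within 0.1 in units of the smallest one, so no count test was run.

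The 421 symbols with several entries were summed above each library's smallest value, and 0 columns were left unmatched. limma 3.58.1 in R 4.3.3 (variance trend, no covariates) was fitted to log2(CPM + 1) of all genes passing the filter, with Benjamini-Hochberg adjustment, and was tested on simulated data. Alternatives changed the pseudocount, filter, scaling, variance trend, merging, libraries and block. Coordinates are the table's (hg19, stop minus 1). Lengths are from GENCODE 29, and promoters from RefSeq.

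The 10 genes, the lists and the tests were chosen with earlier results of these data known. Besides the 10, the text names up to 4 called genes per role with the smallest adjusted p, of which 1 is not reported here. APH1A, SPEN, HEY1, DTX1, HUWE1, PGK1 and other genes not called were named after their values were seen, as was the comparison per length. Figures were drawn with matplotlib 3.10.9, and tables made with pandas 2.3.3 under Python 3.11.15.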

Additional observations from a re-analysis of the deposited data

How the results depend on the processing

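NOTCH1, NOTCH3, JAG1, MAML2, HES1 and RBPJ kept their direction and their call in every alternative that gave a value, and HES1 gave none under a filter of a mean of at least 5 CPM. The fitted log2 fold change of NOTCH3 was 2.02 with a pseudocount of 5 and 4.46 with one of 0.1. With quantile normalization 2 of the 10 genes were called lower instead of 1, the second being HES4. NOTCH2 changed sign with GFP library C as the only control (-0.062). JAG2 changed sign there (0.557) and without GFP library A (0.136), and ranged from -0.472 to 0.136 when each library was left out in turn. With a single control the spread came from TEADi, and that library is assumed to vary like them. The causes of these changes were not tested. Library letters recur in both groups, but same-letter libraries did not deviate together (r across genes of 0.08, -0.06 and -0.02), so they were not used as pairs. With the letter as a replicate block the 10 genes gave 5 higher and 1 lower, and 8232 genes were called in all, against 8299 without it. Of all calls 42.0% were higher with the authors' scaling and 50.4% with equal totals, under which 26 instead of 20 genes of the pathway list were higher. Genes near 1 CPM (JAG2, HES1, HES4, HEY1) rest on few reads.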

Other observations

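Some Notch pathway genes had their reads on different entries in different libraries. NOTCH2NL has an entry on chromosome 1 and another on a patch sequence of the assembly (HG1287_PATCH). In GFP library C and TEADi library C its reads were on chromosome 1 (31.5 and 30.5 CPM) and the patch entry was at the smallest value, and in the other 4 libraries the patch entry held 32.1 to 47.1 CPM and the chromosome entry was at the smallest value. The gamma-secretase subunit APH1A had 134.8 CPM on the patch and the smallest value on chromosome 1 in TEADi library B, and the opposite in the other 5 libraries. An entry taken alone would thus show a gene switched off in some libraries of a group, while the summed values of APH1A in TEADi were 133, 135 and 143 CPM. Of 421 symbols with several entries, 209 had their reads on 1 entry per library (above 10 times the smallest value) but not on the same entry in all libraries.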
